A study of Mus musculus with 4 samples.

Results

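The cytosolic ribosome is built from ribosomal RNA and many kinds of small protein, which sit in a small (40S) subunit that reads the mRNA and a large (60S) subunit that joins amino acids. Their mRNAs are among the most abundant of any cell. Most of them start with a run of pyrimidines, the 5′ terminal oligopyrimidine (TOP) tract, through which their translation follows nutrient and mTOR signalling. The genes were taken by symbol, as Rpl or Rps followed by a digit plus Rplp0, Rplp1, Rplp2 and Rpsa, with pseudogenes, S6 kinases and Rps19bp1 left out. This gave 85 of 32285 genes, 33 of the 40S subunit (Rpsa included) and 52 of the 60S subunit.

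They were measured in single brain cells, mostly microglia (the resident macrophages of the brain), of 2 PRMT1FL mice, wild type by the labels, whose alleles of the arginine methyltransferase gene Prmt1 are floxed, and of 2 PRMT1Cx3cr1-KO mice, which carry the same alleles with the tamoxifen-inducible recombinase Cx3cr1-CreERT. The driver acts in microglia and in other cells that express Cx3cr1. All mice were on the C57BL/6 background, all were given tamoxifen (at 5 to 6 wk of age in the study's methods, an age that the labels give for the diet), and all were then fed 0.2% cuprizone (CPZ), a toxin that strips axons of myelin, for 5 wk, so no group without CPZ enters any comparison here. Each mouse gave 1 droplet library from CD45+ CD11b+ cells, sorted after enzymatic dissociation. Counts are unique molecular identifiers (UMIs, which count each captured RNA molecule once). Below, 4 values in a row are PRMT1FL mouse 1, PRMT1FL mouse 2, PRMT1Cx3cr1-KO mouse 1 and PRMT1Cx3cr1-KO mouse 2, unless another order is given.

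The libraries held 76943248 to 99559644 UMIs, and 8170 to 11427 cells per mouse passed the filters. Between 31 and 46 cell barcodes were shared by any pair of libraries. Markers of microglia (Tmem119, P2ry12 and others, 7 genes) summed to 8236 to 9348 CPM (UMIs scaled to the total of the library) in every mouse. The libraries stood apart in other cells: haemoglobin and Alas2 (5 genes) summed to 237 and 91.2 CPM in PRMT1FL mice but 0.0605 and 0.0208 CPM in PRMT1Cx3cr1-KO mice, neutrophil markers (6 genes) to 407 and 1342 against 0.883 and 84.2 CPM, and astrocyte markers (6 genes) to 48.1 and 43.9 against 9.23 and 4.08 CPM. Unless stated otherwise, values are from the 39548 cells of the 9 microglial clusters, which leave out the neutrophil-like cells and a cluster led by Ttr. Prmt1 stood at 93.2, 86.1, 69.8 and 67.7 CPM (log2 fold change −0.38, standard error 0.07, Benjamini-Hochberg adjusted p = 0.0744 in edgeR's quasi-likelihood test over all genes). Intact and recombined transcripts are not separated by these counts, so this value is a limited check of the labels.

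Of all microglial UMIs, 20.7% came from the 85 genes. Their share was 21.8, 21.1, 20.8 and 19.4%. The 40S genes supplied 9.30, 9.0, 8.93 and 8.35% and the 60S genes 12.5, 12.1, 11.8 and 11.1%. Single cells differed far more than counting allows. In PRMT1FL mouse 1 the share per cell had a standard deviation of 6.84 percentage points, where sampling of UMIs alone gives 0.646 points, and in the other mice the standard deviation was 6.14 to 6.65 points against 0.607 to 0.649. Over all mice the 5th percentile of cells had a share of 7.2%, the median cell 19.9% and the 95th percentile 29.7%. Within each mouse the 40S and the 60S share of a cell rose and fell together (Pearson's r 0.971 to 0.975 across 7804 to 10963 cells, which share their library and their total as denominator). The share was lower in shallow cells: in the lowest of 5 equal bins of UMIs per cell (500 to 3366) it was 16.9, 14.9, 15.3 and 13.8%, and in the highest bin 22.7, 21.9, 21.5 and 19.8%.

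A few genes carried much of this signal. Rps29, a zinc-binding protein of the small subunit, alone held 4.84% of the UMIs of all members. Rpl37 (2.66%), Rpl39 (2.62%) and Rps21 (2.52%) followed. At the other end, Rpl10l and Rpl3l, paralogs of Rpl10 and Rpl3 known from testis and muscle, had 0 to 5 UMIs per mouse and were too low to be tested. Rpl39l, the testis-enriched paralog of Rpl39, was listed at 6.27, 20.3, 14.3 and 4.71 CPM, and Rps27rt, a retrogene of Rps27, at 11.95, 16.3, 10.8 and 11.7 CPM. The other 83 genes passed the filter on low counts, so all 85 genes are accounted for. These UMIs are counts of 3′ ends, with no scaling by length, and reads of near-identical copies may be split among paralogs and pseudogenes.

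The level of the genes differed mainly between cell states. Cells were clustered without the ribosomal protein genes and without genes that differ between genotypes. Names ending in -like rest on lists of marker genes, and the other clusters keep a number. The name D-like is a loose one: P2ry12 and Crybb1 are among its 10 leading genes, but Tmem119, Selplg, Siglech and Sox4 of the same list are not, and P2ry12 is on the list of another cluster of the study (E) too. Cluster 3 has Gdf15, Tnfaip2 and Nfkbia of that other list among its leading genes, beside Tnf, Egr1 and Il1b. The share was lowest in the D-like cluster (5575 cells led by Il7r, the heat shock gene Hspa1b, Txnip, and P2ry12 and Crybb1, which mark microglia at rest), at 14.1, 14.0, 13.5 and 13.3%. It was highest in cluster 7 (6649 cells led by haemoglobin genes, Lgals3 and Cox6a2), at 29.2, 28.0, 27.4 and 25.01%. Each mouse had the same lowest and the same highest cluster among those with at least 100 cells in every mouse, and the ranges of both clusters were apart. As the cells were grouped by their transcripts, no test is given.

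**Figure D1:**
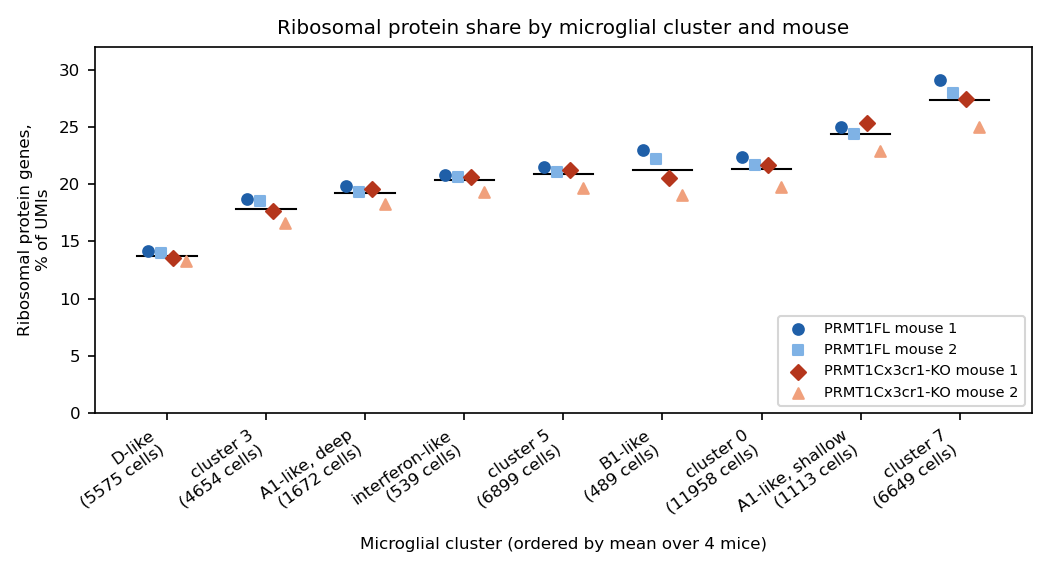
Share of UMIs from ribosomal protein genes (y axis, % of UMIs) in the 9 microglial clusters (x axis, cell numbers in brackets), 1 point per mouse, with the mean over 4 mice as a line. D-like cells lie lowest at 13.3 to 14.1% and cluster 7 highest at 25.01 to 29.2%, and PRMT1Cx3cr1-KO mouse 2 is the lowest mouse in each cluster.

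Between these ends lay cluster 3 (led by Gdf15, Tnf and Egr1) at 16.6 to 18.7%, the deep A1-like cluster (dividing cells led by Mki67 and Cenpf) at 18.3 to 19.8%, the interferon-like cluster (Rsad2, Ifit3) at 19.4 to 20.8%, cluster 5 (Ptgs2, Tnfsf9, Cxcl2) at 19.7 to 21.5%, and cluster 0 (Gpnmb, Tnfsf8, Apoc4) at 19.8 to 22.4%. These ranges over mice overlapped from one cluster to the next. B1-like cells (Ms4a7, Clec12a) stood at 23.0, 22.2, 20.5 and 19.0%, with 15 and 7 cells in PRMT1FL mice. The second group of dividing cells, the shallow A1-like cluster led by Ube2c and Pbk, had 22.9 to 25.4%, above the deep one in every mouse. Its median cell had 4529 UMIs, against 13334.5 in the deep one. Depth did not order the clusters: D-like cells had a median of 3185 UMIs and cluster 7 had 4327. The median cell of cluster 7 had 1299 genes and 2.31% mitochondrial UMIs, the highest among the 9 microglial clusters, and that of D-like cells had 1506 genes and 1.5%. The part of these values in the difference was not tested. Haemoglobin made up 0.201, 0.105, 0 and 0% of the UMIs of cluster 7, and its share of ribosomal protein UMIs without haemoglobin in the total was 29.2, 28.0, 27.4 and 25.01%.

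Cluster 7 held 69.1% of the 10% of microglia with the highest share (27.4% of UMIs or more), and 41.1% of its own cells were among them. D-like cells gave 12 of them, 0.215% of that cluster. Outside microglia, F-like cells (macrophages with Mrc1 and F13a1) had 19.5 to 20.6%, whereas neutrophil-like cells, found in PRMT1FL mice only, had 8.36 and 6.22%. The cluster led by Ttr, a gene of the choroid plexus, had 7.28 to 12.04%.

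Most genes followed the same order of clusters. Of the 83 genes at 10 CPM or more, 81 were higher in cluster 7 than in D-like cells in each of the 4 mice, with a median log2 difference of 1.0, whereas 20.5% of all 7272 genes at that level were higher in each mouse, with a median of −0.71. Cluster 7 was the highest of 7 clusters for 77 genes and D-like cells the lowest for 79. The widest difference was that of Rps26, which lies at the mRNA exit of the small subunit: 4724, 4221, 4511 and 3974 CPM in cluster 7 and 1590, 1461, 1517 and 1455 CPM in D-like cells, a log2 difference of 1.53 (1.45 to 1.57 over mice). Rpl41, whose product is the shortest ribosomal protein, followed with 1.43 and Rpl35 with 1.35.

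Not all genes took part alike. Of the 83, the other 2 were Rpl39l, higher in cluster 7 in 3 of 4 mice, and Rpl7l1, a relative of Rpl7 known for 60S assembly. Rpl7l1 stood at 57.8 CPM in cluster 7 and 65.6 CPM in D-like cells (mean over mice) and lower in cluster 7 in 4 of 4 mice. Rps9 (log2 difference 0.54) and Rps27 (0.64) showed the smallest rise among abundant genes. Rps27 and Rps27l, 2 paralogs that encode exchangeable versions of one 40S protein, parted in dividing cells: relative to its own mean over clusters on the log2 scale Rps27 stood at −0.30 in the deep A1-like cluster, and Rps27l at 0.51. Rps27l is also known as a p53 target.

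**Figure D2:**
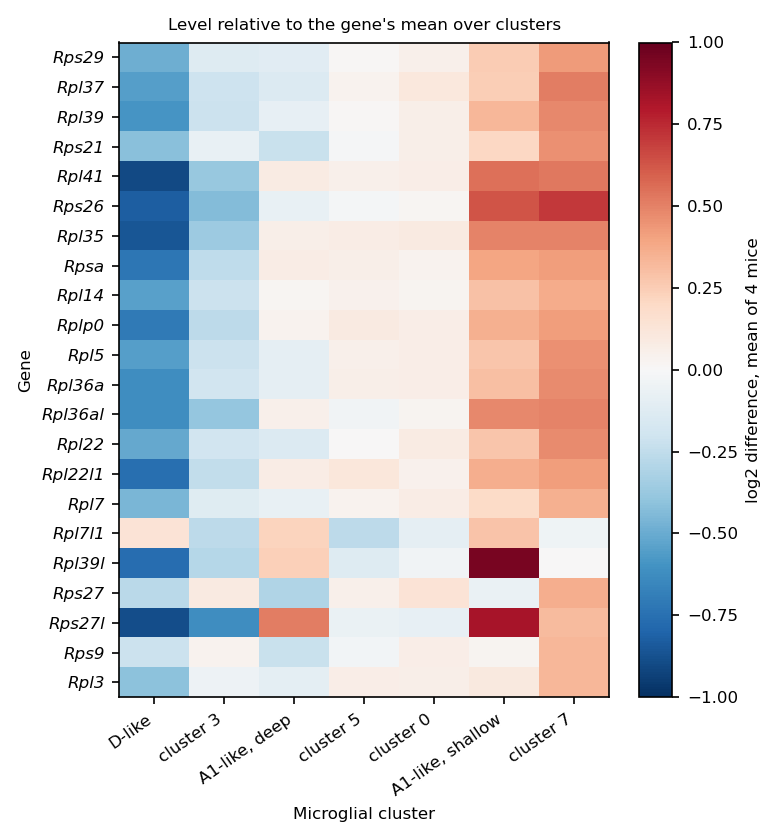
Level of named ribosomal protein genes (rows) in the 7 clusters with at least 100 cells in every mouse (columns), as the log2 difference from the gene's own mean over clusters, averaged over 4 mice. Most rows run from blue in D-like cells to red in cluster 7, while Rpl7l1, Rps27 and Rps9 vary little and Rps27l and Rpl39l peak in the shallow A1-like cluster, at 0.82 and 0.95.

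The start regions of these genes are shown because a TOP tract is what the class is known for. RefSeq (GRCm38.p6) promoter windows were matched to 65 of the 85 genes by symbol. A run of at least 7 pyrimidines beginning with C, on the gene's strand and between 20 bases before and 30 after the listed start, was found in 36 of the 65 (55.4%) and in 22.1% of 27025 genes. The motif CCGGAA, the core bound by ETS factors such as GABP, searched on both strands over 300 bases, was in 33 of 65 (50.8%) against 15.2% of all genes. For 6 genes named below the 30 bases around the listed start follow, 5′ to 3′ on the gene's strand, with the longest run of pyrimidines beginning with C in capitals where it has at least 5 bases. They lie at chr10:128626492-128626521 (minus strand, Rps26), chr9:120571502-120571531 (plus, Rpl14), chr3:90213634-90213663 (minus, Rps27), chr9:66946071-66946100 (plus, Rps27l), chr4:152325711-152325740 (plus, Rpl22) and chr3:28805493-28805522 (plus, Rpl22l1).
Rps26: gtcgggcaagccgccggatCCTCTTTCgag
Rpl14: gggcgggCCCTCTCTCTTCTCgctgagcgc
Rps27: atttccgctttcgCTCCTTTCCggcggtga
Rps27l: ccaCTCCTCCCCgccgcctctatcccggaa
Rpl22: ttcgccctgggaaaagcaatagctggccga
Rpl22l1: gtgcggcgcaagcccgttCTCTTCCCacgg
The runs had 8, 14, 9, 9 and 8 bases in Rps26, Rpl14, Rps27, Rps27l and Rpl22l1, and the longest in the Rpl22 window had 4. A listed start can differ from the start used in these cells, and a match in letters is a description only.

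To compare states without clusters, microglia with transcripts of a marker list were set against microglia without them, at equal numbers in each bin of depth within each mouse. No ribosomal protein gene was among the markers. Their UMIs are part of the total used for the match on depth, so the draw was not independent of them. Results with cells matched on the UMIs of other genes are given further below. The clearest difference was that of cells rich in inflammatory transcripts. Cells with at least 4 of Ccl3, Ccl4, Il1b, Tnf, Ccrl2 and Nfkbiz (chemokines, cytokines and their feedback regulators) had a ribosomal protein share of 19.0, 18.7, 17.4 and 17.2%, whereas cells with at most 1 of them had 24.1, 22.7, 22.7 and 20.7%. The share was lower in 4 of 4 mice, with a mean log2 ratio of −0.32 ± 0.05 (SD, n = 4; exact 2-sided sign-flip permutation p = 0.13, the smallest that 4 mice allow, and 0.143 adjusted over 8 lists). The study used no inhibitor of transcription during isolation. It names Ccl3, Ccl4, Jun and Hspa1a as markers of induction by enzymatic isolation, and reports no evidence that they drove a cluster. Hspa1a is among the leading genes of D-like cells. The part of isolation in these differences was not tested.

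In the gene-wise test all 83 genes fell in cytokine-positive cells (edgeR's quasi-likelihood test, adjusted p below 0.05), with a median log2 ratio of −0.48, while 26.1% of all genes tested fell and their median was 0.01. The values ran from −0.72 (standard error 0.05, adjusted p = 2.55e-15 by edgeR) for Rps26 to −0.31 (0.05, 1.54e-06) for Rps27. Rps26 stood at 2273, 2114, 1998 and 1921 CPM in positive cells and at 3938, 3316, 3557 and 2920 CPM in negative cells, so no positive value reached a negative one. Rps27l (−0.72) and Rpl39l (−0.68) were next, and Rpl7l1 (−0.33) and Rpl3 (−0.34) were at the upper end beside Rps27. Without normalization factors the median of all genes moved by 0.17 and that of the ribosomal protein genes was −0.31, with all 83 still lower. Without the match on depth, where the median positive cell had 9315 to 11366.5 UMIs per mouse and the median negative cell 3351.5 to 4228, 43 were lower and 1 higher.

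**Figure D3:**
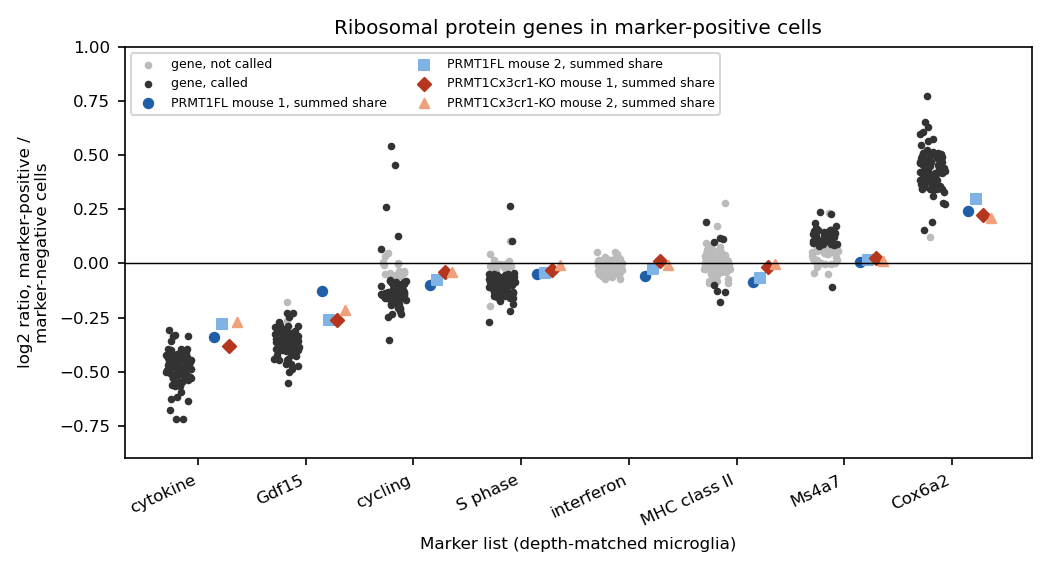
Log2 ratio of marker-positive to marker-negative microglia (y axis) for 8 marker lists (x axis): small points are the 83 ribosomal protein genes (dark where called by edgeR at an adjusted p of 0.05), and large symbols give the ratio of the summed share in each mouse, without normalization factors. All genes lie below 0 for the cytokine and Gdf15 lists and above 0 for the Cox6a2 list.

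Cells with at least 2 of Gdf15 (a stress-induced cytokine), Il7r and Pdlim4 had 20.1, 18.1, 18.2 and 17.3%, and matched cells with none 22.0, 21.7, 21.8 and 20.04%. The share was lower in 4 of 4 mice, by a mean log2 ratio of −0.22 ± 0.06 (SD, n = 4; exact permutation p = 0.13). Of the 83 genes, 81 fell (median −0.37, edgeR), against 16% of all genes tested, and Rpl39l (−0.27, adjusted p = 0.414) and Rpl7l1 (−0.18, adjusted p = 0.138) did not pass. Rps26 was again at the low end, with −0.55 (standard error 0.06, adjusted p = 4.74e-06 by edgeR), followed by Rpl41 (−0.50) and Rpl35 (−0.49). Without normalization factors 75 were lower.

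The opposite was seen with Cox6a2, Ndufa1 and Uqcc2, which serve the mitochondrial respiratory chain. Cells with all 3 had 23.9, 23.4, 22.5 and 21.2%, and matched cells with at most 1 had 20.2, 19.0, 19.3 and 18.3%. The mean log2 ratio was 0.24 ± 0.04 (SD, n = 4; higher in 4 of 4 mice, exact permutation p = 0.13). Of the 83 genes 82 rose, with a median of 0.42 (edgeR), while 25.1% of all genes tested rose and 24.3% fell. Rps27rt (0.12, adjusted p = 0.327) was the one that did not pass. Rps27l had the largest value, 0.77 (standard error 0.05, adjusted p = 4.68e-09 by edgeR), at 286, 317, 320 and 347 CPM in positive and 167, 163, 192 and 225 CPM in negative cells. Rps26 (0.65) and Rpl36al (0.63) were next, and Rps27 (0.15) and Rps9 (0.19) were lowest among those called. Without normalization factors the median of all genes moved to −0.20 and 79 of the 83 were higher, Rps27 (−0.03, adjusted p = 0.490) not among them.

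In dividing cells the class as a whole moved little and its members moved in both directions. Cells with at least 2 of Mki67, Top2a, Birc5, Cdk1, Ccnb2 and Ube2c had 21.3, 20.8, 20.9 and 19.5% and matched cells without them 22.9, 21.9, 21.5 and 20.03% (mean log2 ratio −0.06 ± 0.03, SD, n = 4, lower in 4 of 4 mice, exact permutation p = 0.13). By edgeR 59 genes fell (25% of all genes tested did) and 5 rose (24.8% of all genes did), with a median of −0.12. Rps27l (0.54), Rpl39l (0.46), Rpl7l1 (0.26) and Rpl36al (0.06) were among those that rose. Rps27l stood at 328, 334, 372 and 402 CPM in cycling cells and at 231, 248, 245 and 262 CPM in the matched cells, without overlap. Its paralog Rps27 went the other way, from 4252, 3443, 3758 and 3042 CPM in matched cells to 3134, 2685, 3033 and 2451 CPM in cycling cells in the same order of mice (log2 ratio −0.35, standard error 0.03, adjusted p = 1.64e-12 by edgeR). Rpl30 (−0.25) and Rps9 (−0.24) were the next lowest.

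Cells with at least 2 of the replication genes Pclaf, Rrm2, Tyms, Mcm3, Mcm5 and Mcm6 had 21.9, 21.2, 21.1 and 19.7% against 22.7, 21.8, 21.6 and 19.8% (mean log2 ratio −0.03 ± 0.02, SD, n = 4, exact permutation p = 0.13). By edgeR 64 genes fell (21.8% of all genes tested did) and 2 rose (21.4% of all genes did), Rps27l (0.27) among them, with a median of −0.09. Rps27 (−0.27) and Rps9 (−0.22) were the lowest of those called. Both cell cycle lists depended on the scaling and on depth. Without normalization factors 47 genes were lower and 12 higher for cycling cells and 32 lower and 13 higher for replicating cells. Without the match on depth 15 were lower and 26 higher, and 12 lower and 41 higher.

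For 3 further lists the summed share differed little. Interferon-positive cells (at least 2 of Ifit1, Ifit2, Ifit3, Rsad2, Isg15 and Oasl2) had 21.7, 21.3, 21.1 and 19.7% and matched cells 22.7, 21.7, 20.99 and 19.8%, lower in 3 of 4 mice. None of the 83 genes was called by edgeR (DESeq2 was not run), where 4.11% of all genes were called higher and 0.803% lower, and 2 had an unadjusted p under 0.05. Cells with MHC class II transcripts (2 of H2-Aa, H2-Ab1 and H2-Eb1) had a share of 21.2, 20.7, 20.8 and 19.7%, against 22.5, 21.7, 21.1 and 19.8% in matched cells. It was lower in 4 of 4 mice, by a mean log2 ratio of −0.04 ± 0.04 (SD, n = 4; exact permutation p = 0.13). By edgeR 4 genes were called higher and 4 lower (8% and 6.47% of all genes), and 1 and 18 without normalization factors. Rps27 was the highest of those called (0.19) and Rps27l the lowest (−0.18). Ms4a7-positive cells (2 of Ms4a7, Clec12a and Gpnmb) had 46 called higher and 1 lower by edgeR (8.81% and 7.99% of all genes), with a median of 0.09. Without normalization factors 9 were higher and 7 lower, and the summed share was higher in 4 of 4 mice, by a log2 ratio of 0.02 ± 0.01 (SD, n = 4).

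Between genotypes the class was lower in PRMT1Cx3cr1-KO microglia by a small amount that the test did not call. The mean share was 21.4% ± 0.52 (SD, n = 2) in PRMT1FL mice and 20.1% ± 0.97 (SD, n = 2) in PRMT1Cx3cr1-KO mice, a difference of −1.35 percentage points (exact 2-sided permutation p = 0.33, the smallest that 2 against 2 allows). Both PRMT1Cx3cr1-KO mice lay below both PRMT1FL mice, and PRMT1Cx3cr1-KO mouse 2 lay lowest. At the mean makeup of clusters, with the mean share per cell, the values were 20.5, 19.9, 19.5 and 18.1%. The share was lower on average in PRMT1Cx3cr1-KO mice in 9 of 9 microglial clusters, and without overlap in 5. Cluster 7 (29.2 and 28.0 against 27.4 and 25.01%) and cluster 3 (18.7 and 18.5 against 17.6 and 16.6%) were among these 5. The rest were the D-like, B1-like and interferon-like clusters. B1-like cells numbered 15 and 7 in PRMT1FL mice. In the interferon-like cluster PRMT1FL mouse 2 had 20.66% and PRMT1Cx3cr1-KO mouse 1 had 20.61%, and PRMT1Cx3cr1-KO mouse 2 had 78 cells. In each of the 9 clusters PRMT1Cx3cr1-KO mouse 2 had the lowest value. The clusters come from the same mice and are not replicates of one another. F-like cells, which are not microglia, did not follow, at 19.97, 19.9, 20.6 and 19.5%.

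By edgeR's quasi-likelihood test none of the 83 genes was called between genotypes, where 0.715% of 13837 genes were. With DESeq2, 3 were called, all lower (Rpl5, Rplp0 and Rpl36a), and 5.28% of all genes were. At an unadjusted p under 0.05 edgeR gave 17 of 83, close to the 19.8% among all genes. The median log2 fold change was −0.17, against −0.00 over all genes, and 78 of the 83 lay below 0, where 50.9% of all genes did (71 of the 83 without normalization factors). The groups did not overlap for 57 genes that were lower and 3 that were higher in PRMT1Cx3cr1-KO mice, against 27.6 and 26.2% of all genes. Among 196 other genes of like abundance, 50% were lower without overlap and 67.9% lay below 0. The 40S genes had a median of −0.16 and the 60S genes of −0.17. In microglial sums a lower level of a gene in all cells and a smaller part of cells with a high level cannot be told apart.

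**Figure D4:**
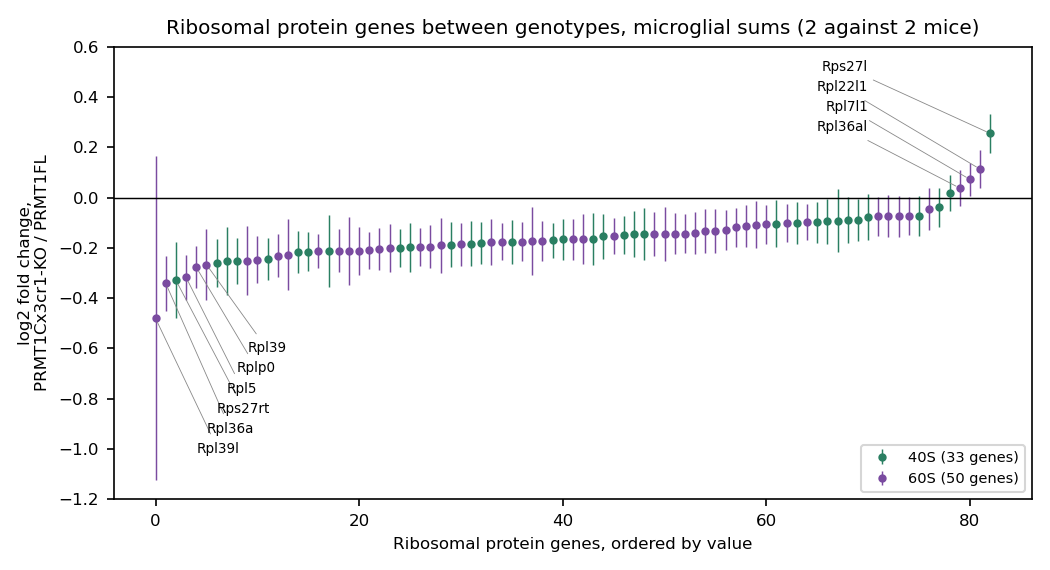
Log2 fold change between genotypes (y axis) with its standard error for the 83 tested ribosomal protein genes, ordered by value (x axis) and coloured by subunit. Of these, 78 lie below 0 (71 without normalization factors) and 5 above, with Rps27l highest at 0.26, and none was called by edgeR.

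The lowest values among genes above 100 CPM were those of Rpl36a, Rpl5 and Rplp0. Rpl36a stood at 1772 and 1572 CPM in PRMT1FL mice, against 1427 and 1214 CPM (log2 fold change −0.34, standard error 0.11, adjusted p = 0.167 by edgeR). Rpl5, which carries 5S RNA into the large subunit, stood at 1653 and 1442 against 1244 and 1241 CPM (−0.32, 0.09, adjusted p = 0.140 by edgeR). For Rplp0, the base of the stalk of the large subunit, the values were 2702 and 2675 against 2315 and 2122 CPM (−0.28, 0.08, adjusted p = 0.154 by edgeR). In each of these 3 genes both PRMT1Cx3cr1-KO mice were below both PRMT1FL mice. Rpl39 (−0.27), Rps20 (−0.26), Rps21 (−0.25), Rps27rt (−0.33) and Rpl39l (−0.48, standard error 0.645) complete the 8 lowest. With each mouse left out in turn, Rpl36a, Rpl5, Rplp0 and Rps20 stayed at −0.17 or below. The values of 3 others came close to 0: Rpl39 was −0.10 and Rps21 −0.13 without PRMT1Cx3cr1-KO mouse 2, Rps21 was −0.11 without PRMT1FL mouse 1, and Rps27rt was −0.09 without PRMT1FL mouse 2. Rpl39l turned to 0.60 without PRMT1FL mouse 2 and to 0.13 without PRMT1Cx3cr1-KO mouse 2.

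Calls, over all genes too, depended on the mice included. Without PRMT1Cx3cr1-KO mouse 1, edgeR called 18 genes lower and Rps27l higher, with a median of −0.21, and 19.6% of all genes tested there were called. Without PRMT1Cx3cr1-KO mouse 2 it called Rpl5 only (8.06% of all genes), and the median was −0.09. Without normalization factors the median was −0.09 and that of all genes 0.07.

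Rpsa, the laminin receptor and 40S protein, and Rpl14 lie on chromosome 9 at 57.8 and 502 kb from Cx3cr1 (GRCm38, 119901616 to 120069879), the locus of the driver. Rpsa (chromosome 9, 120127689 to 120132369) stood at 2974 and 2849 against 2659 and 2484 CPM (−0.18, standard error 0.08, adjusted p = 0.297 by edgeR). Rpl14 (chromosome 9, 120571444 to 120574654) stood at 1313 and 1279 against 1224 and 1197 CPM (−0.10, 0.07, adjusted p = 0.495 by edgeR). Both values lie inside the range of the class. Rps26 (−0.16) and Rpl41 (−0.14), named above for their difference between cluster 7 and D-like cells, were not called between genotypes either.

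The 5 genes above 0 included 4 paralogs of another member, Rps27l, Rpl22l1, Rpl7l1 and Rpl36al. Rps27l (chromosome 9, 66946086 to 66949516) stood at 233 and 243 against 268 and 300 CPM (0.26, standard error 0.08, adjusted p = 0.156 by edgeR). Rpl22l1 stood at 437 and 477 against 495 and 493 CPM (0.11, 0.07, adjusted p = 0.439 by edgeR), Rpl7l1 had 0.07 and Rpl36al 0.04. With each mouse left out Rps27l ran from 0.17 to 0.34, Rpl22l1 from 0.05 (without PRMT1FL mouse 1) to 0.18, Rpl7l1 from 0.03 (without PRMT1Cx3cr1-KO mouse 2) to 0.12 and Rpl36al from −0.0056 (without PRMT1FL mouse 1) to 0.08. Set against its paralog within the same library, a ratio that no scaling of libraries changes, each of the 4 held a larger part of the pair in each PRMT1Cx3cr1-KO mouse than in either PRMT1FL mouse. The partners all lay below 0 (Rps27 −0.21, Rpl22 −0.17, Rpl36a −0.34, Rpl7 −0.18). A larger mean part of the pair follows from these values and is no separate result. How often pairs of other genes part without overlap was not counted. Rpl36al made up 27.3 and 31.0% of the UMIs of Rpl36a and Rpl36al in PRMT1FL mice, against 33.5 and 36.3%. Rpl22l1 made up 24.9 and 25.8% against 28.4 and 30.1% of its pair with Rpl22. For Rps27l the values were 5.59 and 6.89% against 7.15 and 9.84%, and for Rpl7l1 3.49 and 3.50% against 3.96 and 4.29%. For Rpl36al and Rps27l the mice of each genotype differed by more than the gap between the groups. Their partners were higher in mouse 1 than in mouse 2 of both genotypes. The log2 differences were 0.26 and 0.34 for Rps27 and 0.17 and 0.23 for Rpl36a (PRMT1FL first).

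The comparison of genotypes in each of the 4 pairs has an exact permutation p of 0.33, the smallest possible with 2 mice per group. The mean was higher in PRMT1Cx3cr1-KO mice in 7 of 7 clusters for each pair, and the groups did not overlap in 6 clusters for Rpl36al, Rpl22l1 and Rpl7l1 and in 5 for Rps27l. Here too the clusters come from the same mice. The fifth pair, Rpl39 and Rpl39l, did not follow: Rpl39l held 0.233% ± 0.19 of it in PRMT1FL and 0.183% ± 0.11 in PRMT1Cx3cr1-KO mice (SD, n = 2). The retrogene Rps27rt was not set against Rps27 as a pair. Its log2 fold change between genotypes was −0.33 (standard error 0.15), and that of Rps27 was −0.21 (0.14). Reads that fit both genes of a pair, or a pseudogene, may be left uncounted, and their part in these values was not tested.

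**Figure D5:**
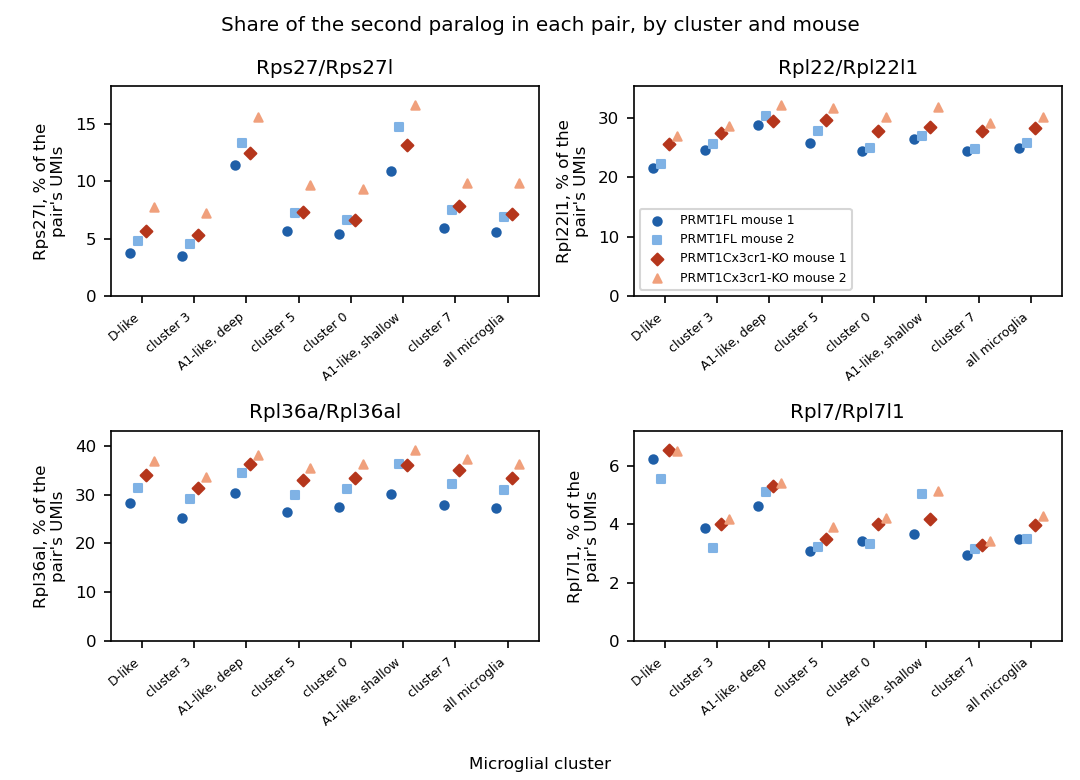
Part of each pair's UMIs held by the second paralog (y axis, %) in 7 microglial clusters and in all microglia (x axis), 1 point per mouse. In all microglia both PRMT1Cx3cr1-KO mice lie above both PRMT1FL mice in each of the 4 pairs, and Rps27l takes its largest part, 10.9 to 16.6%, in the A1-like clusters.

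Inside single clusters few genes were called. Rps27l was above 0 in 7 of 7 clusters (0.13 to 0.42), the only gene of the class with that pattern, and 54 genes were below 0 in all 7. The share of all genes with either pattern was not counted. The clusters are sums over the same mice, so agreement between them is not replication. In D-like cells, where edgeR called 14.5% of all genes, it called Rps27l higher (0.42, standard error 0.10, adjusted p = 0.0137) and Rps20 (−0.30) and Rpl35a (−0.33) lower. In cluster 3 it called Rpl5 lower (−0.35, adjusted p = 0.0420, 6.73% of all genes called), and in cluster 7 Rplp0 (−0.37, adjusted p = 0.0463, 3.03% of all genes called). The shallow A1-like cluster had Rpl39l lower (−1.77, adjusted p = 3.32e-04, 1.04% of all genes called by edgeR), a gene with few UMIs. In that cluster it stood at 18.2 and 68.1 CPM in PRMT1FL mice, against 17.8 and 8.57 CPM. PRMT1FL mouse 1 and PRMT1Cx3cr1-KO mouse 1 were thus alike, and the high value was that of PRMT1FL mouse 2. Over all microglia Rpl39l stood at 6.27 and 20.3 CPM in the PRMT1FL mice. No member was called by edgeR in cluster 0, cluster 5 or the deep A1-like cluster (8, 5 and 3 genes at an unadjusted p under 0.05, with 0.545, 2.02 and 0.169% of all genes called). Median log2 fold changes ran from −0.23 in cluster 7 to −0.08 in the deep A1-like cluster.

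Whether the state differences depended on genotype was tested as an interaction. For interferon-positive cells 13 genes had a higher ratio in PRMT1Cx3cr1-KO than in PRMT1FL mice (edgeR, median over the 83 genes 0.10), where 1.24% of all genes were called. Rps27 had the largest of these values, 0.19 (adjusted p = 0.00401 by edgeR). The summed log2 ratio per mouse was −0.06, −0.03, 0.01 and −0.01. The count was 3 in another random draw of cells, 0 without a match on depth or with cells matched on the UMIs of other genes, and 0 higher and 1 lower without normalization factors. It was 0 without either PRMT1FL mouse. Leaving out PRMT1Cx3cr1-KO mouse 1 gave 3 and leaving out the other mouse of that genotype gave 36. For the other 7 lists edgeR called none of the 83, and DESeq2 was not run. At an unadjusted p under 0.05 there were 72 for cycling cells, where 8.36% of all genes had such a p and 0.16% were called at the adjusted p. For the other lists the members' counts, followed by both shares of all genes, were 4 for S phase (6.51 and 0.234%), 11 for MHC class II (6.6 and 0.201%), 1 for Gdf15 (10.3 and 0.63%), 9 for Ms4a7 (8.12 and 0.725%), 4 for Cox6a2 (7.62 and 0.343%) and 0 for the cytokine list (6.15 and 0.227%). Without normalization factors, 20 genes had an unadjusted p under 0.05 for cycling cells in place of 72. The median interaction of the 83 genes for cycling cells was 0.09, and 0.05 without normalization factors. With the factors but without PRMT1Cx3cr1-KO mouse 1 it was 0.11.

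One part of the class varied between mice of the same genotype. Of 80 genes above 100 CPM, 11 were higher in mouse 1 than in mouse 2 of both genotypes by a log2 difference over 0.15, and 3.27% of all 1254 genes at that level were. They were Rps21, Rps27, Rpl38, Rpl37a, Rpl36, Rpl37, Rps29, Rpl39, Rps28, Rps26 and Rpl36a. Rps21, for example, stood at 6247, 5149, 5208 and 4351 CPM and Rps29 at 11188, 9523, 10449 and 8982 CPM. These 11 genes have short coding sequences (153 to 345 bases, median 252). Those of the other 69 have 138 to 1257 bases (median 480), so the ranges overlap, and the shortest of all, Rpl41 (138 bases), is not among the 11. The standard errors of the 11 genes in the comparison of genotypes were 0.103 to 0.145, and those of the others 0.0671 to 0.109. The genes were chosen by their spread between mice of a genotype, which enters these standard errors, so this is no separate result. Mice of different genotypes are joined here only by a number in the labels, and the part of library preparation in this pattern was not tested.

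Among the 10 genes most like the class over 28 sums of cluster and mouse were Naca (Pearson's r 0.983), Eif3h (0.975), Fau (0.966), Hcst (0.966), Eif3k (0.962), Eef1b2 (0.961), Eif3f (0.959), Rack1 (0.954) and Tpt1 (0.953), out of 2402 genes with at least 50 CPM. Fau encodes a ribosomal protein fused to a ubiquitin-like protein, Rack1 sits on the 40S subunit, and the others named, apart from Hcst (a signalling adaptor), are translation factors or related proteins. The 81 ribosomal protein genes at that level had a median r of 0.967 with their sum, and Rpl7l1 the lowest, −0.0639. The sums share their libraries and their totals, so these values are descriptions.

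Other parts of the translation machinery were counted from lists. Fau and Rack1 were both lower in cytokine-positive and both higher in Cox6a2-positive cells by edgeR. Of 21 other TOP mRNAs (elongation and initiation factors, Tpt1, Naca and others), 19 fell and 2 rose in cytokine-positive cells, 19 fell in Gdf15-positive cells and 19 rose in Cox6a2-positive cells. The 78 mitochondrial ribosomal protein genes shared the direction in these 3 (67 lower in cytokine-positive, 43 lower and 1 higher in Gdf15-positive and 65 higher in Cox6a2-positive cells) but went the other way in cycling cells, where 63 rose and 1 fell. Ribosome biogenesis factors (32 genes) also rose in cycling cells (15, with 0 lower) and in replicating cells (23, with 0 lower), and in cytokine-positive cells 6 were higher and 6 lower. Of all genes tested, 24.8% rose in cycling cells and 21.4% in replicating cells. Of 15 tested regulators of these genes, Myc, Mtor and Larp1 among them, 5 were higher and 2 lower in cytokine-positive cells. Of all genes tested there, 24.9% were higher and 26.1% lower. The shares of all genes were 14.5% higher and 16% lower in Gdf15-positive cells, and 25.1% higher and 24.3% lower in Cox6a2-positive cells.

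Between genotypes edgeR called no gene of these lists, where 0.715% of all genes were called. Of all genes, 50.9% lay below 0 and 19.8% had an unadjusted p under 0.05 by edgeR. The TOP mRNAs had a median log2 fold change of −0.16, with 18 of 21 below 0 and 11 at an unadjusted p under 0.05. Eef1a1 stood at 6721 and 6344 against 5437 and 4806 CPM (−0.35, standard error 0.10, adjusted p = 0.139 by edgeR). Mitochondrial ribosomal protein genes had a median of 0.07, with 62 of 78 above 0 and 9 at an unadjusted p under 0.05, biogenesis factors of −0.02 (0 at that p) and the regulators of −0.03 (3 at that p).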

How the data were processed

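Per the labels and the study's methods, brain cells were dissociated with enzymes, sorted and captured with a 10x 3′ kit, and the authors used Cell Ranger 3.1.0 with mm10. The gene annotation is not given in the sources used here. The deposited values are raw UMI counts per gene and cell, which were not normalized by the authors. The submitters' processing notes also name Seurat 3.2.0 and Scanpy 1.5.2, whose output was not used here.

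From these counts, barcodes were kept if they had 200 to 6000 detected genes and no more than 10% of UMIs from mitochondrial genes, the limits in the study's methods. Doublets were marked by comparison with simulated doublets (6.54 to 9.15% of barcodes) and kept. Cells were clustered with scanpy 1.11.5 (Leiden, resolution 0.4, 2000 variable genes, 20 components, without the members and without 1414 genes that differ between genotypes). UMIs were summed per mouse, since the mouse is the replicate, and tested over all genes with edgeR 4.0.16 (quasi-likelihood, TMM factors, Benjamini-Hochberg adjustment, call at 0.05). CPM in gene-wise comparisons between genotypes and in marker-positive cells use TMM factors. Shares, and CPM of marker lists, clusters and pairs, do not. The standard error is the log2 value divided by the root of the F statistic. Marker-positive and marker-negative cells were drawn in equal numbers from 20 depth bins per mouse. Over 2 against 2 mice the smallest exact permutation p is 0.33. Alternatives were other scaling, filters, DESeq2 1.42.0, a replicate block, leaving out each mouse, other clusterings and other draws.

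Simulated counts for 13837 genes with known changes were tested: edgeR recovered 56.7% of 1.5-fold, 88.1% of 2-fold and 100% of 4-fold changes between genotypes. All genes were given the same fixed dispersion, and no change below 1.5-fold was simulated. These rates therefore do not cover changes as small as the median of the class (log2 fold change −0.17). The members and lists were chosen with earlier results of these data known. Named genes were chosen among those that the study lists (Rps26 and Rpl41 among them), paralogs, Rpsa and Rpl14, the 8 highest and 8 lowest values between genotypes and all called members, the 3 highest and 3 lowest per marker list, the 5 with most UMIs, and the 10 other genes most like the class. Some genes that the rule names are not reported here. Coordinates are from GENCODE M21 (GRCm38), in which all 85 genes were matched by ID.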

Additional observations from a re-analysis of the deposited data

Results flagged for a closer look

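In the main setting, 13 ribosomal protein genes were called in the interaction test for interferon-positive against interferon-negative microglia (edgeR's quasi-likelihood test, adjusted p below 0.05). All had a higher ratio in PRMT1Cx3cr1-KO mice. Among them were Rps27, Rps29, Rps21, Rpl30, Rpl23, Rps9, Rpl36, Rpl39, Rpl37a, Rps4x, Rplp1 and Rpl21. Of all genes tested, 1.24% were called. The count of 13 did not hold in other settings. It was 3 in another draw of cells, and 0 without a match on depth or with cells matched on the UMIs of other genes. Without normalization factors 0 were higher and 1 lower. Leaving out PRMT1Cx3cr1-KO mouse 2 gave 36 genes and leaving out PRMT1Cx3cr1-KO mouse 1 gave 3. With either PRMT1FL mouse left out no gene was called.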

How the results depend on the processing

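The mice share replicate numbers, but nothing in the labels says that a number marks a shared litter or day. Over all 13837 genes tested the deviations of same-numbered mice correlated by 0.0400, so they were not treated as pairs. That value is not one for the class, of which 11 of 80 genes were higher in mouse 1 of both genotypes. With a replicate block edgeR called 0 ribosomal protein genes between genotypes, as without it, at a median of −0.17, and over all genes 329 in place of 99. With the numbers crossed, chosen after seeing the data, the count was 0 as well. At an unadjusted p under 0.05 edgeR gave 17 members without a block, 28 with it and 7 with the numbers crossed. Over all genes it gave 2738, 2747 and 2577. The count of 0 became 3 of 85 without the filter on low counts (7.8% of all genes were called) and 3 with DESeq2 (5.28%), and ran from 0 to 19 with each mouse left out. It was 19 without PRMT1Cx3cr1-KO mouse 1, where 19.6% of all genes were called, and 1 without the other mouse of that genotype (8.06%). The median log2 fold change of −0.17 moved to −0.0915 without normalization factors and ran from −0.208 to −0.0897 with each mouse left out, and it kept its sign in all alternatives run. So did the difference of shares, which ran from −2.03 to −0.66 percentage points with each mouse left out. The span between highest and lowest cluster, 13.7 points, was 12.1 with the members among the variable genes, 15.1 at a raised resolution, 12.2 with another seed and 15.9 for the median over cells. Calls within clusters went from 6 to 1 when members helped to cluster, where 6 clusters in place of 7 were tested.

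For marker-positive cells, calls are given as higher and lower. The share of all genes called was counted only at the main match and scaling for these cells. Counts in the alternatives, here and above, therefore cannot be set against all genes. Without a match on depth they were 26 and 15 for cycling (5 and 59 matched), 41 and 12 for S phase (2 and 64), 62 higher for interferon (0), 51 and 0 for MHC class II (4 and 4), 77 and 0 for Ms4a7 (46 and 1) and 1 and 43 for cytokine (0 and 83), and the summed log2 ratio turned positive for cycling (0.0026), S phase (0.039), interferon (0.057) and MHC class II (0.0084). Matched on the UMIs of other genes, they were 7 and 34 for S phase, 16 and 1 for MHC class II and 0 lower for Ms4a7, and the ratio for interferon turned to 0.0055. Another draw gave 0 lower for Ms4a7. Without normalization factors, chosen after seeing the data, they were 12 higher for cycling, 13 and 32 for S phase, 1 and 18 for MHC class II and 9 and 7 for Ms4a7. With each mouse left out they ran from 1 to 4 higher and 0 to 8 lower for MHC class II, and from 28 to 46 higher and 0 lower for Ms4a7. Interaction counts were 20, 1 and 1 for cycling (no match, match on other genes, another draw) and 0, 0, 3 and 1 (also without normalization factors) for interferon, and with each mouse left out 0 to 4 for cycling, 0 to 36 for interferon, 0 to 1 for Gdf15 and 0 to 1 for Ms4a7. The causes were not tested, other than fewer clusters or samples. The Cox6a2, Gdf15 and cytokine lists kept their direction in all alternatives run. Small differences between genotypes are limited by 2 mice per group.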

Other observations

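The ratio of 60S to 40S UMIs in microglia was 1.344, 1.341, 1.326 and 1.324 in the 4 mice (PRMT1FL mice first), a difference of group means of −0.0173 (exact 2-sided permutation p = 0.33, the smallest that 2 against 2 allows). Its mean over mice ran from 1.31 (1.30 to 1.31) in cluster 3 to 1.35 (1.34 to 1.36) in cluster 0 among the 9 microglial clusters.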
